A study of Mus musculus with 16 samples.

Results

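The lysyl oxidase family of the mouse has 5 members, Lox and the lysyl oxidase-like genes Loxl1, Loxl2, Loxl3, and Loxl4. They were taken by their names, without the use of any measured value, by matching Ensembl gene identifiers to symbols. All 5 were among the 29629 genes of a table of single-cell UMI counts and among the 47729 genes of a table of bulk read counts. The single cells came from ScxGFP iPSCs, mouse induced pluripotent stem cells that carry a GFP reporter of Scx, the gene of the tendon transcription factor scleraxis. A single iPSC line was used. Mesodermal cells induced from it, without TGF-β2, are T0, and the cells named T3, T6, and T9 had been kept in 10 ng/ml TGF-β2 for that number of days. For every time point there were 3 plates with 384 wells each, and the plates are the replicates (n = 3). The bulk samples were Achilles tendons of mice at 2 weeks of age, 2 wild type (Scx_Wt) and 2 littermates without functional Scx (Scx_homoKO). The labels give neither the knockout allele nor whether tendons were pooled, and nothing says that the plates came from separate cultures, so that p-values measure the spread between plates, which may be technical.

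Lysyl oxidases are secreted copper enzymes that turn lysines and hydroxylysines of collagen and elastin into aldehydes, which then form covalent crosslinks between these molecules. Lox is made as a proenzyme that procollagen C-proteinases such as Bmp1 activate, and with Loxl1, the member tied to elastic fibers, it forms the shorter branch of the family. Loxl2, Loxl3, and Loxl4 carry scavenger receptor domains ahead of the same catalytic domain, and Loxl2 also acts on type IV collagen of basement membranes. In tendon, crosslinked type I collagen bears the load.

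The catalytic domain holds a copper site with 4 histidines in a short stretch. Its coding sequence is shown because all members have this part of the enzyme in common. The sequence of Lox is not printed here. Each line is read 5′ to 3′ on the coding strand from GENCODE vM21 transcripts of GRCm38, with the histidine codons in capitals.
Loxl1: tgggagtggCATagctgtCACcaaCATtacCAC
Loxl2: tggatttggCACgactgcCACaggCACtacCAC
Loxl3: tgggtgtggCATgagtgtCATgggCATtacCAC
Loxl4: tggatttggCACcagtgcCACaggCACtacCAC

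Each stretch is split by an intron. It lies at chr9:58293720-58294381 in Loxl1, at chr14:69682316-69689037 in Loxl2, at chr6:83049995-83050125 in Loxl3, and at chr19:42598807-42599899 in Loxl4. Over the 33 bases, Lox and Loxl1 shared 32 and Loxl2 and Loxl4 shared 31, whereas the other pairs shared between 21 and 25. Loxl3 shared 25 with each of Loxl1, Loxl2, and Loxl4. The coding sequences had 411 codons in Lox, 607 in Loxl1, 776 in Loxl2, 754 in Loxl3, and 758 in Loxl4. No word of 36 bases, the length of the single-cell reads, was shared by the transcripts of any pair, so that an exact full-length read belongs to 1 member.

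The genes lie at chr18:52516067-52529867 (Lox, minus strand), chr9:58287738-58313186 (Loxl1, minus), chr14:69609068-69695834 (Loxl2, plus), chr6:83034173-83052562 (Loxl3, plus), and chr19:42593982-42612813 (Loxl4, minus). Their identifiers are ENSMUSG00000024529, ENSMUSG00000032334, ENSMUSG00000034205, ENSMUSG00000000693, and ENSMUSG00000025185. Loxl3 overlaps Htra2 on the other strand over 535 exon bases, 11.6% of its exon length, and Loxl2 overlaps the antisense gene Gm27177 over 301 bases, or 5.57%. The strand setting of the counting is not given in the sources used here, so that reads of these stretches may belong to either gene.

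A cell was kept when at least 200 genes were detected, which left 4594 of 4608 wells. Plates held between 1921125 and 4657093 UMIs, and bulk samples between 11188270 and 12398560 counts. Levels from the plates are given as CPM, that is, scaled to 1000000 UMIs of a whole plate. CEL-Seq2 counts 1 tag for each captured molecule, so these levels were not divided by gene length. Log2 fold changes come from counts scaled between plates by TMM, so they can differ from ratios of these levels, also in sign. Mean Loxl1, for example, was 125 CPM at T6 and 115 CPM at T9, with a log2 fold change of 0.11. The study's mapping summary lists more reads without a feature for 7 plates (all of T0, T3-2, T6-1, T6-3, and T9-3) than for the other 5. Values within these 2 sets of plates are given for part of the results, and not for Loxl1 and Loxl3 versus T0. Of the 10 tenocyte markers, the summed level was between 623 and 648 CPM at T0, where Tnmd and Kera were at 0, and between 7764 and 24206 CPM at T9. Col1a1 alone had 318, 232, and 254 CPM on the T0 plates and 8273, 5768, and 20730 CPM on the T9 plates. Sums of other marker lists were also higher at T9, without a test: the smooth muscle list summed to between 260 and 583 CPM at T0 and to between 2294 and 3505 CPM at T9, and the parietal endoderm list, which holds Col4a1 and Col4a2, to between 987 and 1175 and to between 6185 and 11384.5. Adipocyte markers summed to at most 0.859 CPM at T0 and to between 25.2 and 54.3 CPM at T9, and endothelial markers to between 13.2 and 17.4 and to between 46.6 and 100.5. Adipoq and Cidec of the adipocyte list and Cdh5 and Tie1 of the endothelial list were at 0 on all T9 plates. Fabp4 and Cdh5 were at 0 on all T0 plates. Pluripotency markers summed to between 371 and 780 CPM at T0 and to between 0.332 and 296 CPM at T9. No gene of the smooth muscle or parietal endoderm list was at 0 on all plates of a time point, and the part of these lists in the results below was not tested.

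Lox, the founding enzyme of the family, went from a nearly undetected transcript to the most abundant member. Its level was 4.08, 2.78, and 1.88 CPM on the T0 plates, 644, 374, and 606 CPM at T3, 815, 977, and 863 CPM at T6, and 1398, 1434, and 1417 CPM at T9. No plate of a later time point reached down to an earlier one. All 4 members that passed the filter on low counts were called higher at T3 than at T0 and all 4 again at T9 compared with T0, where 33.2% and 45.2% of all genes tested were called in either direction. For Lox the log2 fold change was 7.78 ± 0.42 (SE) at T3 versus T0 (edgeR adjusted p = 2.02e-08) and 9.40 ± 0.45 at T9 versus T0 (edgeR adjusted p = 2.25e-09). The T0 level rests on 38 UMIs over 3 plates. With only the plates where more reads lacked a feature, these changes were 6.91 and 9.04, with a lone plate at T3 and at T9.

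After T3 the rise of Lox was smaller. From T3 to T6 it was 0.71 ± 0.30 on the log2 scale and did not pass (edgeR adjusted p = 0.213), while 2 other members passed and 4.24% of all genes were called. The T3-2 plate was the lowest at T3. Where more reads lacked a feature, the difference was 1.29, and within the plates with fewer it was 0.79. These are values without a test, since T3-2 is the lone T3 plate of the former set and T6-2 the lone T6 plate of the latter. From T6 to T9 it was 0.91 ± 0.30 (edgeR adjusted p = 0.151). None of the 4 members tested was called in that step by edgeR, where 1.62% of all genes were called. Lox alone had an unadjusted p under 0.05, and DESeq2 called it (adjusted p = 0.0464).

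**Figure D1:**
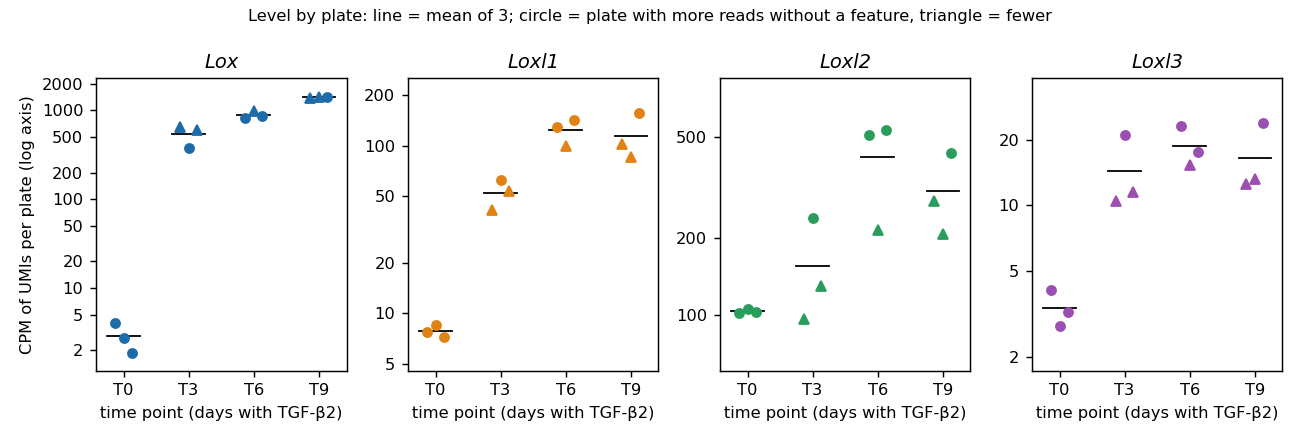
Level of 4 members on each plate in CPM (log axis, each panel with its own range) at T0, T3, T6, and T9. Points are plates, the line is the mean of 3, and the symbol marks plates with more (circle) or fewer (triangle) reads without a feature. Lox lies below 5 CPM at T0 and above 370 CPM on every later plate. The circles lie above the triangles at T3, T6, and T9 for Loxl1, Loxl2, and Loxl3.

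Loxl1, the elastic fiber member, rose in both of the first intervals. Its level was 7.73, 8.57, and 7.27 CPM at T0, 41.1, 62.6, and 53.7 CPM at T3, 130, 99.9, and 143 CPM at T6, and 102.4, 85.4, and 158 CPM at T9. T0, T3, and T6 did not overlap, whereas the T9 plates spread around those of T6. At each later time point, plates with more reads without a feature lay above those with fewer. The log2 fold change was 2.95 ± 0.19 at T3 versus T0 (edgeR adjusted p = 7.82e-08), 1.26 ± 0.17 at T6 versus T3 (edgeR adjusted p = 9.43e-04), and 0.11 ± 0.16 at T9 versus T6 (edgeR adjusted p = 0.776). At T9 versus T0 it was 4.32 ± 0.19 (edgeR adjusted p = 1.63e-09). The rise from T3 to T6 was 1.25 among plates where more reads lacked a feature and 1.22 among the others, with a lone plate at T3 or at T6.

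Loxl2 was the member that T0 cells already expressed. The T0 plates had 101, 105, and 103 CPM. At T3 the plates had 96.3, 242, and 130 CPM, at T6 510, 216, and 534 CPM, and at T9 281, 208, and 435 CPM. In CPM the first T3 plate lay below all T0 plates, whereas the groups did not overlap in the TMM-scaled levels used with the test. At each later time point the highest values were those of plates with more reads without a feature. At T3 versus T0 the log2 fold change was 0.77 ± 0.27 (edgeR adjusted p = 0.0405). This call was lost without any 1 of the T0 plates (adjusted p between 0.0914 and 0.105), with the replicate number as a block (0.0596), with thinned cells (0.0523), without T3-3 (0.0705), and without T3-2, where the change was 0.49 and the adjusted p 0.175. With only the plates that had more reads without a feature, where T3 is a lone plate, the change was 1.19.

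From T3 to T6 Loxl2 rose by 1.45 ± 0.27 on the log2 scale (edgeR adjusted p = 0.00793). The rise was 1.23 within the plates with more reads without a feature and 1.08 within those with fewer. In each of these sets 1 time point is a lone plate (T3-2 and T6-2), so these are given as values without a test. From T6 to T9 the difference was -0.19 ± 0.26 (edgeR adjusted p = 0.749). At T9 versus T0 it was 2.03 ± 0.28 (edgeR adjusted p = 4.56e-05), and 2.24 within the plates with more reads without a feature, where T9 is a lone plate.

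Loxl3 stayed a low member. It had 4.08, 2.78, and 3.23 CPM at T0, 10.4, 21.002, and 11.5 CPM at T3, 23.0, 15.3, and 17.6 CPM at T6, and 12.5, 13.2, and 23.9 CPM at T9. Every later plate was above every T0 plate, and T3, T6, and T9 overlapped with each other. Within each later time point, plates with more reads without a feature lay above those with fewer. The log2 fold change was 2.28 ± 0.28 at T3 versus T0 (edgeR adjusted p = 3.94e-05), 0.42 ± 0.25 at T6 versus T3 (edgeR adjusted p = 0.403), 0.03 ± 0.24 at T9 versus T6 (edgeR adjusted p = 0.961), and 2.73 ± 0.28 at T9 versus T0 (edgeR adjusted p = 3.26e-06).

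Loxl4 was barely detected in the cultured cells and did not pass the filter, so it was not tested. There were 2 UMIs in T0 cells, 0 in T3 cells, 1 in T6 cells, and 8 in T9 cells, or 11 UMIs in 7 cells in all. The count of 0 at T3 allows a level of up to 0.400 CPM, and the limit covers counting error only. Of the 8 UMIs at T9, 1, 4, and 3 were on the 3 plates.

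Summed over the 5 members, the family went from 117 ± 2.41 CPM (SD, n = 3) in T0 cells to 764 ± 56.3 after 3 days, 1448 ± 127 after 6, and 1857 ± 156 after 9. Loxl2 made up between 86.3% and 89.2% of the family's UMIs on the T0 plates and Lox between 1.64% and 3.47%. From T3 on Lox led on every plate, with between 53.5% and 81.3% at T3, between 55.1% and 74.7% at T6, and between 69.6% and 82.3% at T9. The share of Loxl1 stayed between 4.90% and 9.21% on all 12 plates, although its level rose, and that of Loxl3 did not exceed 3.47%. The lower Lox shares at T3 to T9 were on plates with more reads without a feature (T3-2, T6-1, T6-3, and T9-3).

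The order of the mean levels at T0 was Loxl2, Loxl1, Loxl3, Lox, and Loxl4. Only Loxl3 and Lox, at 3.36 and 2.91 CPM, overlapped in this order. At T3, T6, and T9 the order was Lox, Loxl2, Loxl1, Loxl3, and Loxl4, and no neighbors overlapped at any of these time points.

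**Figure D2:**
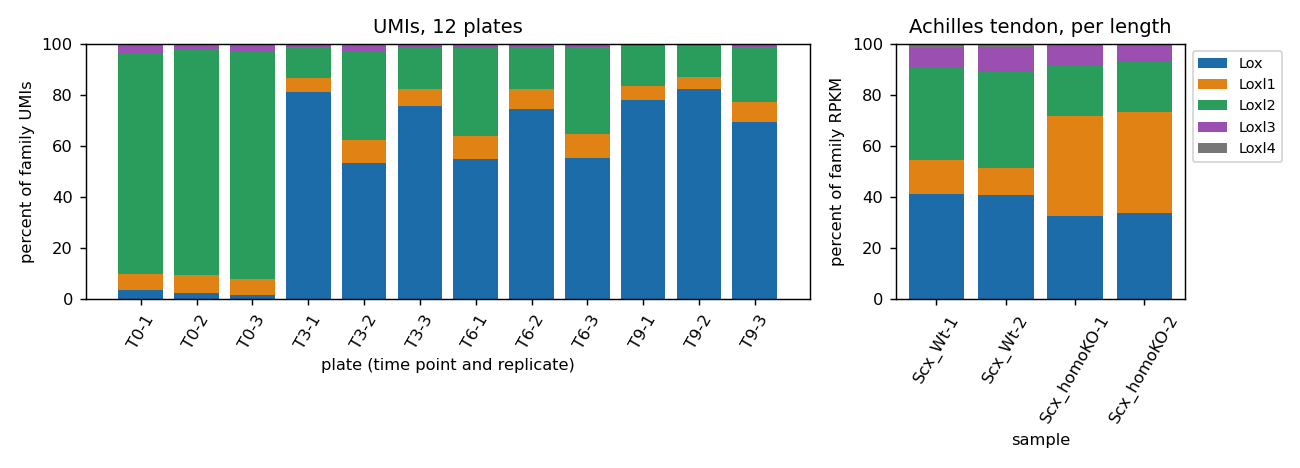
Makeup of the family by member, as percent of the family's UMIs on each of the 12 plates (left) and as percent of the family's RPKM (reads per kilobase of exon and 1000000 reads) in each Achilles tendon sample (right). Loxl2 fills over 86% of each T0 bar and Lox over 53% of each later bar, and Loxl1 fills 39.4% or more of both Scx_homoKO bars and at most 13.4% of the Scx_Wt bars.

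The same order held in single cells. Of T0 cells, 2.53% ± 1.32 (SD, n = 3) had a Lox UMI, and the share was 73.9% ± 6.64 after 3 days, 94.2% ± 1.98 after 6, and 95.4% ± 0.925 after 9. Because cells differed in depth, each was also thinned to 3000 UMIs. The mean over plates was then 0.751% at T0 and 78.3% over the 9 later plates, against 2.53% and 87.8% with all UMIs. All 9 later plates were above the 3 T0 plates (exact permutation test, two-sided, p = 0.00909, the smallest that 3 against 9 plates can give, adjusted p over the 5 members = 0.0227).

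Loxl1 was found in 6.97% of T0 cells and 39.8% of later cells (exact permutation p = 0.00909, adjusted 0.0227), and in 2.79% and 21.9% after thinning. For Loxl3 the shares were 3.31% and 11.1% (exact permutation p = 0.0182, adjusted 0.0303), and 0.938% and 4.72% after thinning. The share of cells with Loxl2, 48.6% at T0 and 62.0% later, did not pass (exact permutation p = 0.327, adjusted 0.409). The later plates ranged from 19.0% to 88.8% for Loxl2, with means of 40.0% at T3, 76.1% at T6, and 69.8% at T9. Every T6 and T9 plate was at 54.9% or more, above the highest T0 plate at 53.0%, whereas T3 plates lay on both sides of T0. The test takes the later plates as 1 group, so its spread also holds differences between T3, T6, and T9. After thinning the Loxl2 shares at T0 and later were 24.7% and 44.7% (exact permutation p = 0.0909, adjusted 0.114). Loxl4 was in 0.174% and 0.145% of cells.

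**Figure D3:**
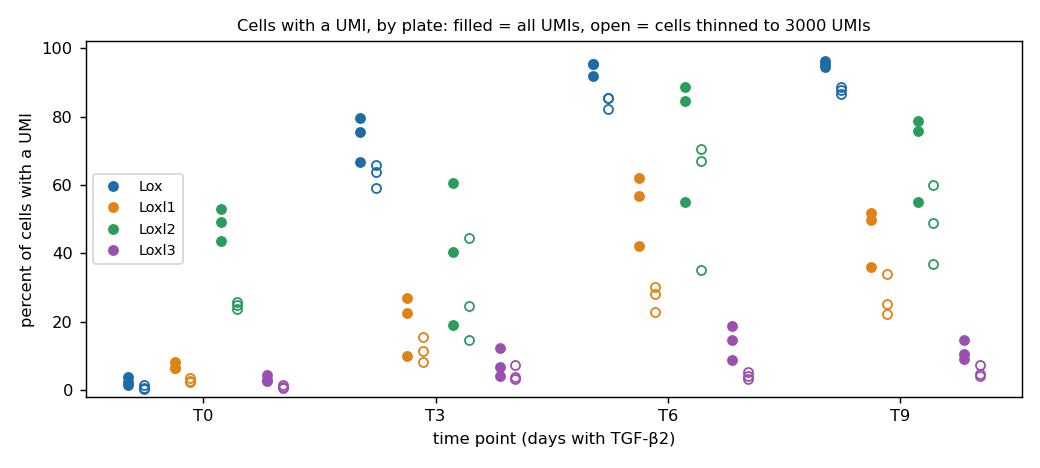
Percent of cells with a UMI of Lox, Loxl1, Loxl2, or Loxl3 at T0, T3, T6, and T9. Each point is a plate, with all UMIs (filled) and with every cell thinned to 3000 UMIs (open). Lox rises from at most 3.93% at T0 to at least 66.7% at T3, and the 3 Loxl2 plates of a time point lie far apart from T3 on.

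Cells with more than 1 member became common. At T0, 72.4% ± 1.86 of cells (SD, n = 3) had no UMI of any member after thinning, 26.1% ± 2.199 had 1 member, and 1.58% ± 0.417 had 2. At T6, 4.29% ± 2.29 had none, 33.8% ± 12.7 had 1, 47.0% ± 9.80 had 2, and 14.1% ± 4.57 had 3. At T9 the shares with 1, 2, and 3 members were 36.7% ± 8.26, 44.2% ± 5.87, and 13.03% ± 6.13. No cell had all 5.

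Cells that held at least 3 of 8 pluripotency markers were taken as a background assumed to lack Lox, which their values at T3 to T9 did not bear out. At T3 to T9, 25 of 36 such cells had a Lox UMI, or 69.4% (exact Clopper-Pearson interval 51.9% to 83.7%, which covers counting error only, since the cells were pooled over plates), at a median depth of 18636 UMIs, whereas 88.0% of 3411 other cells had one at a median depth of 7430. Thinned to 3000 UMIs the shares were 25% and 79.2%. The summed level was 97.6 CPM in the former and 993 CPM in the latter. Of the 118 such cells at T0, 2 had a Lox UMI. The source of the Lox UMIs in such cells at T3 to T9 was not tested, so they give no background for the shares of those time points.

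The genes of the same pathway were taken from lists of known substrates and partners, and their counts at T9 versus T0 are to be read against the 45.2% of all genes called there. Of the 7 fibrillar collagen genes, 6 were higher at T9 than at T0 and Col2a1, the cartilage collagen, was lower, with a median log2 fold change of 4.12 against -0.02 over all genes tested. Col1a2 rose by 6.37 ± 0.36, Col5a2 by 6.30 ± 0.31, and Col1a1 by 5.83 ± 0.46 on the log2 scale. All 8 genes of elastin and microfibril assembly were higher at T9, with a median of 4.02. Eln, elastin itself, was at 0.429, 0.695, and 0 CPM on the T0 plates and at 853, 690, and 1803 CPM on the T9 plates. Mfap4 and Fbln5, which bind elastic fibers, changed by 5.83 ± 0.58 and 4.82 ± 0.24.

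Enzymes that prepare lysines moved in the same direction. Of the 5 lysyl hydroxylases and partners, 4 were higher at T9 (median 2.33), led by Plod2, the telopeptide lysyl hydroxylase, with 3.23 ± 0.21. Fkbp10, a chaperone of Plod2, changed by 2.82 ± 0.19 and Plod1 by 2.33 ± 0.24. Of the 11 processing enzymes and scaffolds, 7 were tested and 6 were higher (median 4.95). Postn, a matricellular scaffold for Bmp1 and Lox, had 8.99 ± 0.30, and Fmod, a collagen-binding proteoglycan, 8.59 ± 0.42. Dpt, whose level did not exceed 9.31 CPM on any plate, had 7.74 ± 1.11. The gene of the activating protease, Bmp1, was not called.

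Of the 3 genes of type IV collagen crosslinking, Col4a1 and Col4a2 were higher at T9 (2.61 ± 0.26 and 2.52 ± 0.27) and Pxdn, the peroxidasin that makes sulfilimine bonds, was not called. Of the 6 genes of copper supply, 5 were tested and 1 was called, namely Slc31a2 with 1.55 ± 0.25 (median of the list 0.26). These are too few genes to set their share against the 45.2% of all genes called. Atp7a, the pump that loads copper into Lox in the secretory pathway, was not called. Of the 4 other amine oxidases and transglutaminase genes, only Tgm2 was tested and it was higher (2.70 ± 0.82), at no more than 11.9 CPM on any plate.

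By steps, 6 of 7 fibrillar collagens and 7 of 8 elastic fiber genes had risen at T3 versus T0, where 33.2% of all genes were called. So had 4 of 5 lysyl hydroxylases and partners and 4 of 7 tested processing and scaffold genes, Postn and Fmod among them. From T3 to T6, where 4.24% were called, 4 fibrillar collagens, Eln, Mfap5, Postn (2.60 ± 0.22), and Fmod (1.41 ± 0.26) rose. Col4a1 and Col4a2 rose in that step as well, by 1.75 ± 0.26 and 1.603 ± 0.26 on the log2 scale, and were not called at T3 versus T0. From T6 to T9, where 1.62% of all genes were called, the genes of the pathway lists that rose were Eln (1.26 ± 0.29), Mfap5 (2.53 ± 0.37), and Postn (1.63 ± 0.21).

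The genes whose level over the 12 plates was most like that of a member, by Pearson's r of log2 CPM among genes with a mean of 20 CPM or more, are given as a description, since the points share plates and depth. For Lox they were Mgp (r = 0.996), Ifi27l2a (0.996), and Kdelr3 (0.995). For Loxl1 they were Col6a3 (0.995), Col6a2 (0.995), and Npdc1 (0.995). For Loxl2 they were Junb (0.983), Vamp2 (0.975), and Ckap4 (0.970), and for Loxl3 Fgf11 (0.988), Nid1 (0.987), and Slit3 (0.987). The 3 genes named for Loxl2 had, like it, higher levels on T3-2, T6-1, T6-3, and T9-3 than on the other plates of their time points. Mgp and Ifi27l2a were at 0 CPM on all T0 plates, where Lox did not exceed 4.08 CPM. Any gene with such a step from T0 to the later plates can have a high r with Lox. Col6a2 and Col6a3 encode type VI collagen chains and Nid1 a basement membrane linker.

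Cells with a UMI of Scx were then compared with the other cells of their plate. None of the 4 members tested was called at T3, T6, or T9 by edgeR, where 0.426%, 0.515%, and 1.27% of all genes were called, and none by DESeq2. At T3, Lox had 672, 394, and 623 CPM in Scx-positive cells and 540, 265, and 505 CPM in the others, so that it was higher on all 3 plates (log2 fold change 0.38 ± 0.11, edgeR adjusted p = 0.241). The difference was 0.22 ± 0.08 at T6 (edgeR adjusted p = 0.320), again on all 3 plates, and 0.12 ± 0.06 at T9 (edgeR adjusted p = 0.601), on 2 of 3. Lox was the only member with an unadjusted p under 0.05, at T3 and at T6, and at T9 no member had one. Without a filter on low counts, Lox was called at T3 (0.47, adjusted p = 0.0191) and T6 (0.30, adjusted p = 0.0352), and without T9-3 at T9 (0.19, adjusted p = 0.0175).

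In these same contrasts other genes of the pathway did differ. Fmod was higher in Scx-positive cells by 1.76 ± 0.19 at T6 and 1.22 ± 0.13 at T9 on the log2 scale, and Postn by 0.83 ± 0.12 and 0.94 ± 0.07. Eln was lower, by -0.53 ± 0.10 at T6 and -0.40 ± 0.08 at T9. At T3 none of these 3 was called: Fmod was at 1.71 ± 0.44, Postn at 0.58 ± 0.28, and Eln, with the opposite sign, at 1.19 ± 0.36 (edgeR adjusted p = 0.245). Scx-positive cells were deeper, with medians between 4744 and 10909 UMIs per cell over T3 to T9 plates against between 4166 and 8408 in the others.

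Cells with a UMI of Tnmd, the membrane protein tenomodulin that marks maturing tenocytes, were compared with the others at T6 and T9 on 6 plates. Of the 4 members tested, 1 was called, Loxl2, where 2.93% of all genes were called. Its level in the Tnmd-positive cells was 679, 288, and 557 CPM at T6 and 330, 272, and 573 CPM at T9, against 470, 203, 531, 267, 199, and 417 CPM in the other cells of the same plates. It was higher on 6 of 6 plates (0.39 ± 0.08 on the log2 scale, edgeR adjusted p = 0.00410). The call was lost when every cell was thinned to 3000 UMIs before cells were chosen (0.36, adjusted p = 0.125), and in a model that ignores which plate the cells came from (0.38, adjusted p = 1.00).

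Loxl1 went the other way without passing the test. It had 98.8, 55.7, and 101 CPM in Tnmd-positive cells at T6 and 107, 70.5, and 116 CPM at T9, and 138, 108, 148, 101, 87.6, and 163 CPM in the others. It was lower on 5 of 6 plates, T9-1 being the exception (-0.42 ± 0.13, edgeR adjusted p = 0.0758). It was called with a minimum of 2 Tnmd UMIs (-0.62, adjusted p = 0.0343), without a filter (-0.51, adjusted p = 0.00705), after thinning (-0.98, adjusted p = 0.00680), and without T9-1 (-0.54, adjusted p = 0.0294). Lox differed by 0.11 ± 0.07 (edgeR adjusted p = 0.648) and Loxl3 by 0.38 ± 0.26 (edgeR adjusted p = 0.648).

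**Figure D4:**
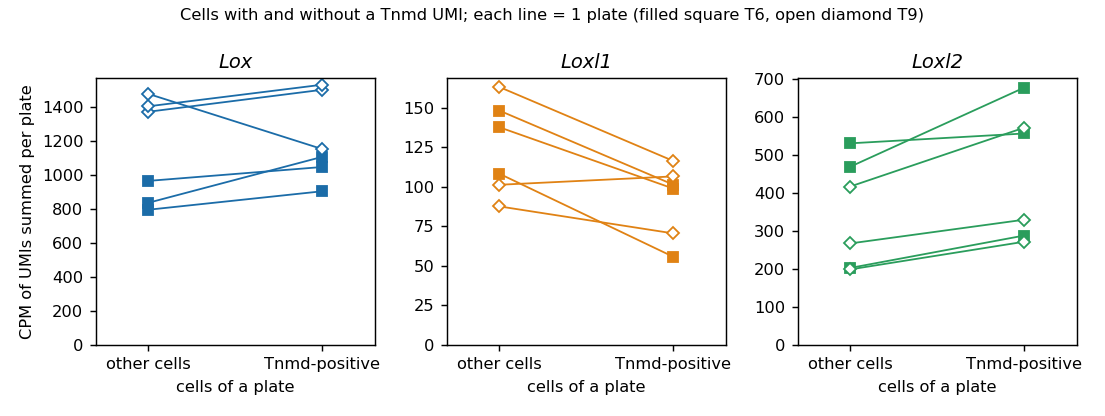
Level of Lox, Loxl1, and Loxl2 in CPM of UMIs summed over the cells with and without a Tnmd UMI on each T6 (filled square) and T9 (open diamond) plate, with a line joining the 2 sums of a plate. Loxl2 rises along all 6 lines, Loxl1 falls along 5, and Lox rises along 5.

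Around these members, the elastin and collagen genes differed in the same cells. Eln was lower in Tnmd-positive cells (-0.67 ± 0.11) and Adamts2, a procollagen N-proteinase, too (-1.27 ± 0.24). Fibrillar collagens were higher in 4 of 6 tested, with Col5a2 at 1.09 ± 0.15 and Col11a1 at 0.72 ± 0.09, and Fmod and Postn were higher by 1.26 ± 0.11 and 1.25 ± 0.07 on the log2 scale. Col4a2 was higher by 0.55 ± 0.11. Tnmd-positive cells were deeper, with medians between 7734 and 12520.5 UMIs per cell against between 7029.5 and 10071.

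In the Achilles tendon, Scx was first read as a check of the labels. It had 1151 and 996 counts in Scx_Wt and 287 and 296 in Scx_homoKO, so that reads remained in the knockout but each was lower (log2 fold change -1.88 ± 0.17, edgeR adjusted p = 4.29e-04). Of the 5 members, all tested here, 1 was called higher and 2 lower in Scx_homoKO, where 3.84% of all genes were called.

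Loxl1 was the member that rose. It had 144 and 107 CPM in Scx_Wt and 338 and 389 CPM in Scx_homoKO. Both knockout samples were above both wild types, by 1.59 ± 0.18 on the log2 scale (edgeR adjusted p = 0.00173), and the call held in all 8 other settings run, with a log2 fold change between 1.43 and 1.76.

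Loxl2 fell. It had 633 and 627 CPM in Scx_Wt, values that differed little, and 272 and 316 CPM in Scx_homoKO (-1.05 ± 0.18, edgeR adjusted p = 0.0144). Without the first Scx_homoKO sample the call was lost (-0.92, adjusted p = 0.0752), where the lone knockout sample is assumed to vary like the wild types. Loxl4 had 231 and 179 counts in Scx_Wt and 23 and 37 in Scx_homoKO, or 20.6 and 14.6 against 1.86 and 3.14 CPM, and fell by 2.76 ± 0.37 on the log2 scale (edgeR adjusted p = 0.00355). It was thus the member with the widest gap between the genotypes and the lowest level in both.

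Lox and Loxl3 were lower in both knockout samples without passing the test. Lox had 642 and 602 CPM in Scx_Wt and 403 and 484 CPM in Scx_homoKO (-0.44 ± 0.19, edgeR adjusted p = 0.274). Loxl3 had 120 and 141 CPM in Scx_Wt and 103 and 94.998 CPM in Scx_homoKO (-0.36 ± 0.16, edgeR adjusted p = 0.298). The groups did not overlap for either gene, and neither was called in any of the 8 other settings.

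**Figure D5:**
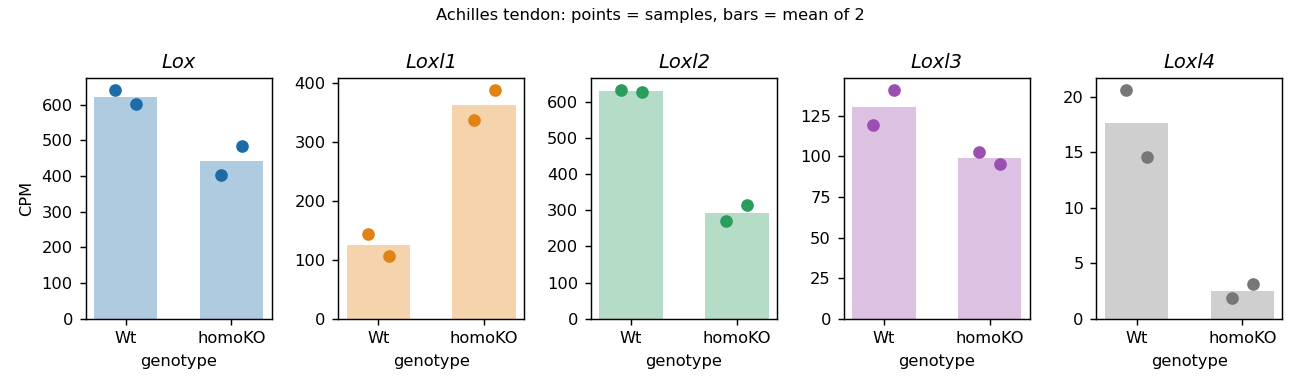
Level of the 5 members in CPM in Achilles tendon of Scx_Wt and Scx_homoKO mice, each panel with its own axis from 0. Points are samples and bars the mean of 2, and Loxl1 alone is higher in both knockout samples.

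To compare members with each other, bulk levels were divided by exon length (RPKM). In Scx_Wt the mean order was Lox (130), Loxl2 (117), Loxl1 (38.1), Loxl3 (28.3), and Loxl4 (4.18). In Scx_homoKO it was Loxl1 (110), Lox (92.8), Loxl2 (54.3), Loxl3 (21.5), and Loxl4 (0.593), and neighbors did not overlap in either order. The sum over the family was 326 and 309 RPKM in Scx_Wt and 260 and 299 in Scx_homoKO, while the share of Loxl1 went from 13.4% and 10.5% to 39.5% and 39.4% and that of Loxl2 from 35.9% and 37.6% to 19.3% and 19.5%.

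In tendon the pathway genes changed in both directions. Of the 7 fibrillar collagens, Col3a1 (1.41 ± 0.31), Col5a1 (1.37 ± 0.24), and Col5a2 (1.23 ± 0.23) were higher in Scx_homoKO and Col11a1 (-1.20 ± 0.18) and Col2a1 (-5.09 ± 0.29) lower. Col1a1 (-0.96 ± 0.32, edgeR adjusted p = 0.148) and Col1a2 (-0.95 ± 0.31, edgeR adjusted p = 0.142) were lower in both knockout samples without being called. The median of the list was -0.95, the value of Col1a2, against -0.00 over all genes. Of the 8 elastic fiber genes, 2 were called and both were higher, Eln (2.32 ± 0.34) and Mfap5 (1.40 ± 0.16). Eln had 1510 and 746 CPM in Scx_Wt and 4635 and 6133 CPM in Scx_homoKO.

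Of the 11 processing and scaffold genes, 10 were tested, of which Postn (1.604 ± 0.28) and Dpt (1.00 ± 0.19) were higher and Pcolce2 (-2.24 ± 0.16), an enhancer of procollagen C-proteinase, and Fmod (-1.89 ± 0.23) lower. None of the 5 lysyl hydroxylases and partners, the 3 type IV collagen crosslinking genes, the 5 copper supply genes tested, or the 3 other amine oxidases and transglutaminase genes tested was called.

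Sums of cell type markers also differed between genotypes, and fewer cells of a type and less RNA per cell cannot be told apart in bulk. The 10 tenocyte markers summed to between 87956 and 95135 CPM in Scx_Wt and between 41104 and 47373 in Scx_homoKO, and 5 were called lower. Among these were the targeted gene Scx and Tnmd, which the paper describes as activated by Scx, so their calls do not measure makeup. Most of the sum was Col1a1, with 84686 and 78446 CPM in Scx_Wt and 37413 and 43732 CPM in Scx_homoKO, which was not called (edgeR adjusted p = 0.148). The 7 chondrocyte markers summed to between 2865 and 2985 CPM and between 359 and 390, with 4 of 6 tested called lower and Matn1 at 0 in all 4 samples. The 8 skeletal muscle markers summed to between 34906 and 64199 CPM and between 84834 and 88653, with none called. Endothelial markers summed to between 934 and 938 CPM and between 581 and 694 (2 of 8 lower), and adipocyte markers to between 1096 and 2512 CPM and between 352 and 688 (2 of 6 lower). Smooth muscle markers summed to between 497 and 998 CPM and between 212 and 368 (1 of 6 lower), and immune markers to between 193 and 325 and between 260 and 306 (none of 6 tested called). The part of these differences in the values of Loxl1, Loxl2, and Loxl4 was not tested.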

How the data were processed

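Single-cell UMI counts (12 plates, 4 time points) and bulk read counts (4 Achilles tendons) were used as deposited. Per the labels and the study's methods, the authors counted UMIs with UMI-tools 1.0.1 after HISAT2 2.2.1 alignment to GRCm38 and featureCounts, and made the bulk counts with HISAT2 2.0.4 and featureCounts 1.5.0. The annotation release and strand setting are not given in the sources used here, and the study's methods do not describe the bulk experiment. The 3 rows without a gene number (0.0642% of UMIs) were left out. Per the identifiers, 29528 of 29629 and 47224 of 47729 genes had a symbol.

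UMIs were summed over cells per plate, or per plate and cell class, and tested in edgeR 4.0.16 (R 4.3.3) by the quasi-likelihood test with TMM scaling and filterByExpr, adjusted by Benjamini-Hochberg over all genes tested, with a call at an adjusted p under 0.05. All 12 plates entered 1 model, and the cell class contrasts had the plate as a block. The standard error is the log2 fold change divided by the square root of F. DESeq2 1.42.0 was an alternative, as were RLE size factors, no filter, a replicate block, thinning, other minimums, and leaving out each sample. The steps were also run on simulated counts with the same spread for every gene and no plate effects. These plates differ from that setting, so the run gives no error rate for them. Shares of cells were compared by an exact permutation test of the difference of means, with a two-sided p of 2 times the smaller tail. This definition replaced one based on the absolute difference after both the data and its p-values had been seen, and it gives larger p-values. Fits within each set of plates split by reads without a feature were added after the data were seen. RPKM used GENCODE vM21 exon lengths.

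The named genes are the members, up to 3 genes of each list with the largest change among those called whose groups did not overlap, the 3 genes most like each member, and Scx and Tnmd. Col2a1, Bmp1, Pxdn, and Atp7a in the time course, Dpt, Col5a2, Col11a1, Col1a1, and Col1a2 in bulk, and genes of single steps fall outside this rule in part and were named after their values were seen. The members and all lists were chosen with earlier results of these data known. Replicate numbers are not known to pair the samples. Deviations from group means of plates with the same number correlated between -0.563 and 0.515 over 18 pairs, and 0.0715 in bulk. Among T3, T6, and T9 plates these correlations were positive within each set split by reads without a feature and negative between the sets. The check therefore cannot exclude a pairing by number. No 2 replicates agreed within sampling noise (chi-square per gene between 3.18 and 57.65 over 14 pairs). Cells were not clustered, and doublets were not called. T3, T6, and T9 versus T0 share the T0 plates.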

Additional observations from a re-analysis of the deposited data

How the results depend on the processing

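Most values kept their direction and their side of the threshold: of 439 alternative values of the members' log2 fold changes, 400 did, 16 became called, 10 lost a call, and 13 changed sign. Every sign change was in a difference that had not been called. The log2 fold change of Loxl3 from T3 to T6 was -0.11 with cells thinned to 3000 UMIs. From T6 to T9, Loxl2 was at 0.064 with the split of plates as a covariate and at 0.31 with only the plates that had fewer reads without a feature, where Loxl3 was at -0.12, and leaving out a plate gave between -0.11 and 0.15 for Loxl3. In Scx-positive cells at T6, Loxl1 was at -0.010 with RLE size factors, -0.017 with no replicate block, -0.16 with a minimum of 2 UMIs of Scx, -0.31 when thinned, and between -0.19 and 0.28 when a plate was left out. In Scx-positive cells at T9, Loxl2 was at -0.10 when thinned. The causes were not tested.

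From T6 to T9, 1 member in place of 0, Lox, was called with DESeq2, with no filter, with the split of plates as a covariate, with only the plates that had more reads without a feature (a lone T9 plate, assumed to vary like the others), and without T6-2 (range 0 to 1 over the plates left out). In Scx-positive cells 1 member was called with no filter at T3 and 1 at T6, and between 0 and 1 at T9 with a plate left out. In Tnmd-positive cells 2 were called with no filter or with a minimum of 2 UMIs, 0 with no replicate block, and between 1 and 2 with a plate left out. Of the shares of cells, 3 of 5 passed, and 0 did within the plates that had more reads without a feature or without any 1 of the T0 plates, where the smallest adjusted p the design allows can miss the threshold (range 0 to 3).

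The replicate block gave 3 members called at T3 versus T0, 2 at T6 versus T3, 0 at T9 versus T6, 4 at T9 versus T0, and 3 in bulk. The replicate numbers are not known to pair the samples. Over all genes, calls varied by more than 1.5 times. From T3 to T6, 567 became 874 with DESeq2, 1010 with no filter, 1483 with the split, 264 with only the 6 plates compared, and between 291 and 890 with a plate left out. From T6 to T9, 217 became 548, 684, 813, and 45 in the same order, 113 with the block, 330 within the plates that had more reads without a feature, and between 35 and 852 with a plate left out. In bulk, 560 became 1415 with no filter and 1108 with the block. For Scx-positive cells at T3, T6, and T9, 38, 54, and 130 became 23, 35, and 63 with DESeq2, 115, 284, and 261 with no filter, 7, 0, and 2 with no block, 77, 140, and 209 with 2 UMIs, and 62, 98, and 71 when thinned, with between 0 and 51, 11 and 399, and 46 and 282 when a plate was left out. For Tnmd-positive cells, 299 became 11 with no block, 481 with 2 UMIs, 198 when thinned, and 186 without T9-2. The precision of Loxl4 in the plates is that of 11 UMIs, and that of Lox at T0 of 38 UMIs.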
